A study of Homo sapiens with 16 samples.

Results

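The 50 genes described here encode chromatin remodellers, enzymes that write or remove histone marks, DNA methylation enzymes and the insulator protein CTCF. They comprise 10 SWI/SNF genes, 8 NuRD and CHD genes, 5 Polycomb genes, 10 methyltransferases, 3 demethylases, 5 acetyltransferases, 4 deacetylases and 5 genes of DNA methylation and CTCF. Accessibility at these genes was read from ATAC-seq, in which a transposase cuts open chromatin and the number of sequenced fragments in a peak measures how open it is. A member's peaks were those whose nearest annotated start carried its Ensembl identifier, which gave 135 of 164980 peaks in the series and covered 44 genes. Identifiers were matched to symbols by position, and 49 of the 50 genes matched, KDM1A being the exception. Of the 135 peaks, 42 were of the promoter class in the deposited annotation, at 30 genes, and 93 were not, namely 59 in introns, 14 at transcript ends, 13 in exons and 7 between genes. ARID1B, ARID2, CHD3, RING1 and EP300 matched but had 0 peaks by this rule.

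The annotation used 1 start per gene, and this start often lay away from the promoter that RefSeq gives. A further set was therefore added after the data had been seen, made of the 1 peak over each member's RefSeq start, and it held 46 peaks. For ARID2, CHD7, DOT1L and SMARCC2 a peak at either end of the gene was taken. In 14 of these 46 the nearest annotated start was the member's own, and in 32 it was another identifier, so that neighbouring or antisense genes can share the peak. SMARCC1, ARID1B, NSD1 and KAT6A had no peak at the RefSeq start. In 5 of the 44 genes with a promoter entry the tabulated start lay more than 1000 bp inside the gene, among them CHD8, where it lay 18848 bp inside, and HDAC4.

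The libraries came from Cal33 and SAS, 2 established HPV-negative lines of head and neck squamous cell carcinoma grown in laminin-rich matrix in 3 dimensions. The 4 groups were Cal33 with siRNA against the laminin-binding integrin subunit ITGA7 (siITGA7), Cal33 with non-targeting siRNA (siControl), SAS with siITGA7 and SAS with siControl, with 4 independent biological replicates each. After transfection, cells were moved into the matrix at 24 h, and nuclei were taken at 48 h. All libraries thus carry a transfection, and the loss of ITGA7 itself was not analysed here. Each line is 1 cancer cell line, and what separates Cal33 from SAS cannot be told apart from their copy number.

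Counts in peaks moved with the siRNA, in opposite directions in the 2 lines. Cal33 siITGA7 libraries held 8646532 to 13285086 counts and Cal33 siControl libraries 3980563 to 8367079 (two-sided exact permutation test, p = 0.0286, the smallest that 70 arrangements allow). SAS siITGA7 libraries held 758590 to 1867047 counts, fewer than the 1766033 to 4870187 of SAS siControl libraries, but the groups overlapped (exact permutation p = 0.0571). The share of counts in promoter-class peaks was 41.0 ± 0.787% in Cal33 siITGA7 and 44.3 ± 3.07% in Cal33 siControl libraries (SD, n = 4 each, exact permutation p = 0.114). It was 30.1 ± 0.364% in SAS siITGA7 and 33.7 ± 0.422% in SAS siControl libraries (SD, n = 4 each, exact permutation p = 0.0286). Cal33 siControl replicate 3 stood apart from its group, with a promoter share of 40.4%, inside the 40.3 to 42.1% of the siITGA7 libraries, whereas the other 3 siControl libraries had 43.5 to 47.1%. The Cal33 libraries with 2 sequencing runs were siControl replicates 1 and 2 (46.4 and 47.1%) and siITGA7 replicate 4 (42.1%). Runs and siRNA are thus partly confounded in Cal33. In the Cal33 libraries with 1 run the median log2 change of promoter-class peaks was −0.03, against −0.12 in all Cal33 libraries. Of siControl, the libraries with 1 run are only replicates 3 and 4, so the outlying replicate 3 weighs more there. With the number of runs as a covariate over all Cal33 libraries the median was −0.08. Of 10 epithelial and squamous marker genes 7 had a peak at the RefSeq start, while CDH1, TP63 and ITGB4 had none. For genes without a promoter entry, such as EPCAM, KRT14, KRT17 and KRT18, a promoter-class peak at either end of the gene was taken. Of 15 fibroblast, endothelial and leukocyte markers 1 had such a peak, namely the monocyte gene CD14.

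Nucleosomes keep most DNA closed, and several protein families decide where it opens. SWI/SNF complexes, built around the ATPases SMARCA4 or SMARCA2, slide and evict nucleosomes, and CHD proteins do so with other partners, CHD4 as the motor of the NuRD complex, which also carries the deacetylases HDAC1 and HDAC2. Polycomb complexes silence developmental genes: EZH2 methylates histone H3, and EED binds the methylated product and stimulates the enzyme. Trithorax-type methyltransferases such as KMT2B and KMT2C mark active promoters and enhancers, acetyltransferases such as EP300, CREBBP and KAT2A loosen chromatin, and DNMT and TET enzymes add and oxidise methyl groups on cytosine. Many of these genes are recurrently mutated in squamous carcinomas. Most are expressed in nearly all cells from promoters rich in CpG.

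The promoters of the genes whose start peak passed the test with the smallest p are shown first, as the sequence that these peaks cover. Each window runs from 250 bases before to 50 bases after the start in RefSeq (GRCh38.p14), 5′ to 3′ on the gene's strand, with the GC box GGGCGG and the CCAAT box on either strand in capitals. CHD8 lies on the minus strand at chr14:21437226-21437525 and SETD5 on the plus strand at chr3:9397365-9397664, and both fell in Cal33.
CHD8: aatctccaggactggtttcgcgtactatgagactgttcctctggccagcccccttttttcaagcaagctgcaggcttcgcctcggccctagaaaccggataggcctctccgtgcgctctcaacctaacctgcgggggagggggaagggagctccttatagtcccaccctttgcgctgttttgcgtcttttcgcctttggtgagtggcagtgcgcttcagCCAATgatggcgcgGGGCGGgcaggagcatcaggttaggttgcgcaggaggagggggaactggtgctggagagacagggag
SETD5: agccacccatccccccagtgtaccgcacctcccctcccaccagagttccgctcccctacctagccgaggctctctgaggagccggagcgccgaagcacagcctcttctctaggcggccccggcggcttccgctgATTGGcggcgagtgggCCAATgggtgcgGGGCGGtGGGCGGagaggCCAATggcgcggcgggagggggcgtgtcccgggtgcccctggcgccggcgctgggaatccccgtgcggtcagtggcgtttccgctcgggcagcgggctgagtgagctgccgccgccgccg
The other 4 fell in SAS, namely CHD1 (minus strand, chr5:98928958-98929257), SMARCA2 (plus strand, chr9:2015097-2015396), KMT2C (minus strand, chr7:152435954-152436253) and EED (plus strand, chr11:86244503-86244802).
CHD1: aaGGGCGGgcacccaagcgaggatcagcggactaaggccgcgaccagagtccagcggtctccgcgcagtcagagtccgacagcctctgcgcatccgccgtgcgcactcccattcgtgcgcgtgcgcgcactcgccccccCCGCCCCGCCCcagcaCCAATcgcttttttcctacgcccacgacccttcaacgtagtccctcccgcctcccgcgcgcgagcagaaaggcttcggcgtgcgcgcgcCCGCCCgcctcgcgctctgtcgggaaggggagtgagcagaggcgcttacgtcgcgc
SMARCA2: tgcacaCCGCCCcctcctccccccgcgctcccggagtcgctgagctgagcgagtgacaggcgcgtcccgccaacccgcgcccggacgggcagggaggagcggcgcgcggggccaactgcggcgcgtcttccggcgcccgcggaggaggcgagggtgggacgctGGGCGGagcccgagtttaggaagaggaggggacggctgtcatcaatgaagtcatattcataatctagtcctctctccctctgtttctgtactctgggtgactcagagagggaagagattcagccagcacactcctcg
KMT2C: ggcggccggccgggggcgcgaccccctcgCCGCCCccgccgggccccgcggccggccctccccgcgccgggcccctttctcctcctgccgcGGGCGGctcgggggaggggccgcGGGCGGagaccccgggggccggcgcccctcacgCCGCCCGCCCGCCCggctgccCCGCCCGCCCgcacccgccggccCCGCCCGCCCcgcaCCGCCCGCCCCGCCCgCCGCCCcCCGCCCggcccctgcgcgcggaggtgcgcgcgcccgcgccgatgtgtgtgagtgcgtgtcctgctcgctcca
EED: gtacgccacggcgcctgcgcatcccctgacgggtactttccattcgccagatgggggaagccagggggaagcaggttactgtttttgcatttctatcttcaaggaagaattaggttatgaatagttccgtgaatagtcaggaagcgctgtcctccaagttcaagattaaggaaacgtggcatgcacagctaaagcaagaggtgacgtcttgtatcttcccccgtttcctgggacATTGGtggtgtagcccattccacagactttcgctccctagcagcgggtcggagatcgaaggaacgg
These windows differ widely in composition. KMT2C had 88.7% G or C, 56 CpG and 15 GC boxes, whereas EED had 52.3% G or C, 16 CpG and 0 GC boxes. CHD8 had 59.7% G or C with 16 CpG, and SETD5 had 73.7% with 33 CpG and 3 CCAAT boxes. Each count is a description of the letters in the window.

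Promoter entries existed for 44 members, whose windows had a median of 70.5% G or C, against 58.3% over all 27305 RefSeq windows. The GC box (GGGCGG, both strands) was in 31 member windows (70.5%), against 44.6% of all windows. CCAAT on either strand was in 12 member windows (27.3%), against 35.7% of all. The TATA motif TATAAA was in 0 member windows, against 12.0% of all, and the AP-1 motif TGANTCA was in 2 (4.55%), against 7.76%. No test was made of these shares. ARID2, CHD7, DOT1L, KAT6A, SMARCC1 and SMARCC2 have no entry in the table.

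In Cal33, the siITGA7 libraries had lower accessibility at the RefSeq start of 6 of the 46 genes and higher accessibility at none. The 6 were CHD8, SETD5, NSD2, HDAC1, SMARCA4 and EZH2, and they fell by 0.42 to 0.71 on the log2 scale. Only at SETD5 was the nearest annotated start the gene's own, so at the others a neighbouring or antisense gene can share the peak. The background over all 11793 tested peaks at RefSeq starts was 11.8% called, with 10.3% lower and 1.53% higher, so the members' share of 13.04% lay near it. The test was edgeR's quasi-likelihood F-test with Benjamini-Hochberg adjustment over all 75230 tested peaks and a threshold of 0.05. At an unadjusted p under 0.05, 0 members were higher and 16 lower, and DESeq2 called 0 higher and 4 lower. Of all 14599 tested promoter-class peaks, 4317 had an unadjusted p under 0.05, and DESeq2 called 156 higher and 1398 lower. The median log2 change of the 46 peaks was −0.12, the same as that of all peaks at RefSeq starts. Of the 46, 39 lay below 0, against 69.0% of all peaks at RefSeq starts. With scaling by promoter-class peaks alone, 21 of the 46 lay below 0. Bulk accessibility cannot tell a peak that is less open in every cell from one that is open in fewer cells.

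**Figure D1:**
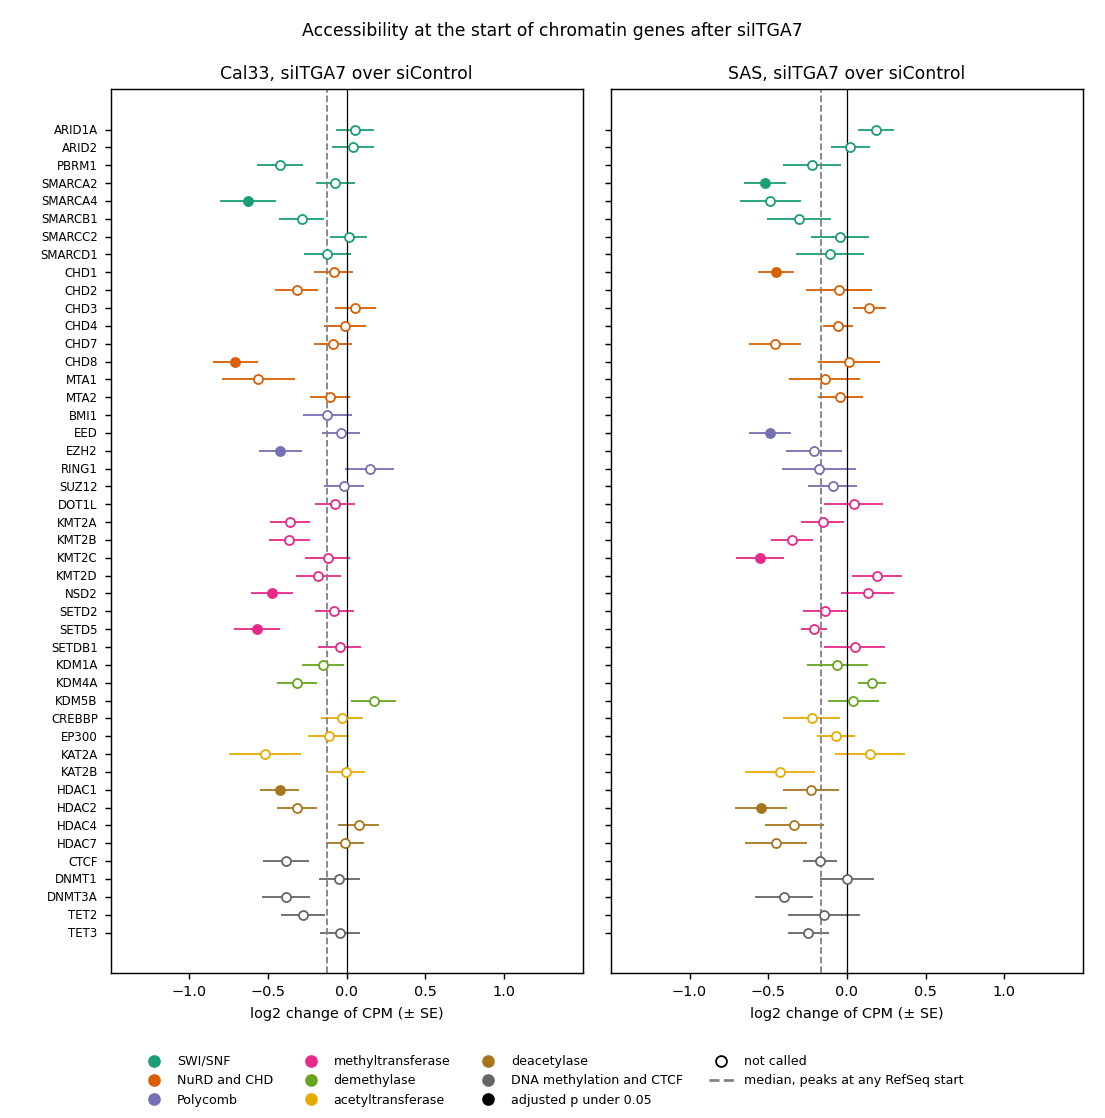
Log2 change in accessibility, siITGA7 over siControl, at the peak over the RefSeq start of each member, coloured by role, in Cal33 (left panel) and SAS (right panel), with bars of 1 standard error (4 against 4 libraries), filled points for an adjusted p under 0.05 and a dashed line at the median of all peaks at RefSeq starts. Most points lie below 0 in both lines, 39 of 46 in Cal33 and 33 of 45 in SAS (21 and 24 with scaling by promoter-class peaks alone), and no gene has a filled point in both panels. Of all tested peaks at RefSeq starts, 69.0% lie below 0 in Cal33 and 73.8% in SAS.

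CHD8, an ATP-dependent remodeller of the CHD family, had the smallest p. Its peak at chr14:21436902-21437807 had 9.78, 11.3, 9.53 and 14.1 CPM (counts in the peak scaled to the library's adjusted total) in the Cal33 siITGA7 libraries, against 18.6, 23.5, 16.9 and 15.0 CPM in the Cal33 siControl libraries. Every siITGA7 library was below every siControl library, as at 10.5% of all tested peaks at RefSeq starts in Cal33. The log2 change was −0.71 ± 0.14 (standard error, as for all fitted changes here), with an adjusted p of 0.00187 by edgeR. The call held in all 18 alternatives, the highest adjusted p among them being 0.0155. A further CHD8 peak at the outer end of the gene, chr14:21455336-21456797, had a log2 change of −0.29 ± 0.12 and an adjusted p of 0.132 by edgeR. In SAS the log2 change of the CHD8 start peak was 0.01 ± 0.20.

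SETD5, a SET-domain protein linked to histone methylation, had the most accessible start peak of the group, at chr3:9396016-9398027. It had 203, 239, 265 and 246 CPM in the Cal33 siITGA7 libraries and 385, 399.8, 265 and 364 CPM in the Cal33 siControl libraries. The groups were just apart, since the highest siITGA7 and the lowest siControl library both rounded to 265. The log2 change was −0.57 ± 0.15 (adjusted p = 0.0117 by edgeR). The SETD5 start call was lost in 3 of 18 alternatives. NSD2, which methylates histone H3 in active genes, had 37.4, 30.9, 34.3 and 32.2 CPM in siITGA7 libraries and 51.1, 59.9, 33.1 and 46.8 CPM in siControl libraries at chr4:1870165-1872321. Its log2 change was −0.48 ± 0.13 (adjusted p = 0.0218 by edgeR), and the groups overlapped through siControl replicate 3. The NSD2 call was lost in 6 of 18 alternatives.

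HDAC1, the deacetylase of NuRD and other corepressors, had 36.1, 41.2, 41.1 and 38.4 CPM in siITGA7 libraries and 54.3, 64.8, 43.0 and 50.3 CPM in siControl libraries at chr1:32290976-32292686. All siITGA7 values were below all siControl values, and the log2 change was −0.42 ± 0.12 (adjusted p = 0.0248 by edgeR). The HDAC1 call was lost in 7 of 18 alternatives. SMARCA4, the SWI/SNF ATPase, had 24.5, 19.1, 24.0 and 24.8 CPM in siITGA7 libraries, against 43.4, 53.3, 22.2 and 28.6 CPM in siControl libraries, at chr19:10960223-10961676. Here the lowest siControl library, replicate 3, lay within the siITGA7 range, and the log2 change was −0.63 ± 0.18 (adjusted p = 0.0286 by edgeR). The SMARCA4 call was lost in 5 of 18 alternatives. EZH2, the catalytic subunit of Polycomb repressive complex 2, had 37.4, 32.0, 34.8 and 39.3 CPM in siITGA7 libraries and 59.8, 57.4, 35.6 and 41.8 CPM in siControl libraries at chr7:148883254-148885173. The groups overlapped, again through siControl replicate 3. The log2 change was −0.42 ± 0.13 with an adjusted p of 0.0431 by edgeR, and with the replicate number as a block it was −0.41 with an adjusted p of 0.0606. This call was lost in 13 of 18 alternatives, and over the 18 the log2 change lay between −0.56 and −0.14.

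The called genes came from 5 of the 8 roles. By edgeR 2 of 9 tested methyltransferase start peaks fell, as did 1 of 8 SWI/SNF, 1 of 8 NuRD and CHD, 1 of 5 Polycomb and 1 of 4 deacetylase peaks. No start peak was called by edgeR among the 3 demethylases, 4 acetyltransferases or 5 genes of DNA methylation and CTCF, where 1, 1 and 2 were lower at an unadjusted p under 0.05 and DESeq2 called 0. Among the uncalled, CTCF had a log2 change of −0.39 ± 0.14 (adjusted p = 0.0859) and KMT2A −0.36 ± 0.13 (0.0667), both by edgeR. PBRM1, the SWI/SNF subunit with many bromodomains, had −0.42 ± 0.15 (adjusted p = 0.0654 by edgeR). RING1, the Polycomb ubiquitin ligase, and KDM5B, which demethylates histone H3 at promoters, stood above 0 at 0.15 ± 0.16 and 0.17 ± 0.14, each within about its error.

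Single libraries decided how many of these peaks passed. The 6 calls were 18 without siControl replicate 3, the library that stood apart, and 1 without siControl replicate 1 or siITGA7 replicate 2. They were 2 without siControl replicate 2 and 3 without siITGA7 replicate 3 or 4. With scaling by promoter-class peaks alone, 5 of the 6 calls remained, EZH2 being lost at an adjusted p of 0.0829 by edgeR. Under that scaling the median of the 46 peaks was 0.03, while the median of all peaks shifted from −0.01 to 0.11. In the 5 Cal33 libraries with 1 sequencing run each, 1 of the 46 peaks was called and their median was 0.06. Of siControl these libraries hold only replicates 3 and 4. With the number of runs as a covariate over all Cal33 libraries, 5 of the 46 peaks were called. The summed start peaks of the members took 0.519 ± 0.00635% of promoter-class counts in Cal33 siITGA7 and 0.522 ± 0.0192% in Cal33 siControl libraries (SD, n = 4 each).

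In SAS, 5 start peaks fell in siITGA7 libraries and none rose among 45 tested. They were CHD1, SMARCA2, KMT2C, EED and HDAC2, with log2 changes of −0.45 to −0.55. At SMARCA2 and KMT2C the nearest annotated start was another identifier, so a neighbouring or antisense gene can share these peaks. In the background, 8.70% of 10731 tested peaks at RefSeq starts were called, 859 of them lower and 0.699% of all higher, close to the members' 11.1%. At an unadjusted p under 0.05, 0 members were higher and 11 lower, and DESeq2 called 0 higher and 1 lower. Of all 12258 promoter-class peaks tested in SAS, 3089 had an unadjusted p under 0.05, and DESeq2 called 67 higher and 192 lower. The median of the 45 peaks was −0.15, against −0.16 for all peaks at RefSeq starts. Of the 45, 33 lay below 0, against 73.8% of all peaks at RefSeq starts. With scaling by promoter-class peaks alone, 24 of the 45 lay below 0. BMI1 was not tested, having 4 to 28 counts per SAS library.

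CHD1, a remodeller of transcribed chromatin, had 64.7, 69.3, 85.6 and 60.1 CPM in the SAS siITGA7 libraries and 101, 94.7, 91.4 and 92.2 CPM in the SAS siControl libraries at chr5:98927901-98929858. All siITGA7 values were below all siControl values, as at 12.7% of all tested peaks at RefSeq starts in SAS. The log2 change was −0.45 ± 0.11 (adjusted p = 0.0043 by edgeR). The annotation names another gene for this promoter. EED, the reader subunit of Polycomb repressive complex 2, had 38.5, 44.0, 41.1 and 41.0 CPM in siITGA7 libraries and 56.4, 55.8, 58.7 and 60.7 CPM in siControl libraries at chr11:86244222-86246050. These groups did not overlap either, and the log2 change was −0.49 ± 0.13 (adjusted p = 0.0104 by edgeR). The CHD1 and EED calls were each lost in 3 of 16 alternatives.

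SMARCA2, the other SWI/SNF ATPase, had 33.2, 45.9, 55.6 and 34.7 CPM in siITGA7 libraries and 57.5, 53.6, 62.9 and 65.7 CPM in siControl libraries at chr9:2014703-2017919. The groups overlapped in 1 siITGA7 library, and the log2 change was −0.52 ± 0.14 (adjusted p = 0.00639 by edgeR). KMT2C, an enhancer methyltransferase often mutated in carcinomas, had 28.0, 24.4, 33.3 and 42.4 CPM in siITGA7 libraries, against 50.9, 37.5, 49.7 and 52.2 CPM in siControl libraries, at chr7:152433782-152437184. Its groups overlapped, siControl replicate 2 being low, and its log2 change was −0.55 ± 0.15 (adjusted p = 0.00938 by edgeR). HDAC2, the close relative of HDAC1, had 17.5, 33.7, 27.8 and 23.3 CPM in siITGA7 libraries and 41.0, 36.7, 33.6 and 42.9 CPM in siControl libraries at chr6:113969920-113971617. Its log2 change was −0.55 ± 0.17 (adjusted p = 0.0238 by edgeR), and 1 siITGA7 library just reached the lowest siControl library. The SMARCA2, KMT2C and HDAC2 calls were lost in 4, 3 and 7 of 16 alternatives.

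As in Cal33, the calls were spread over roles. By edgeR 1 of 8 SWI/SNF, 1 of 8 NuRD and CHD, 1 of 4 Polycomb, 1 of 9 methyltransferase and 1 of 4 deacetylase start peaks fell. None was called by edgeR or by DESeq2 among the 3 demethylases, 4 acetyltransferases or 5 genes of DNA methylation and CTCF, where 0, 0 and 1 were lower at an unadjusted p under 0.05. These 5 calls depended on how the libraries were scaled. With scaling by promoter-class peaks alone, none of the 5 was called, with adjusted p of 0.0566 for SMARCA2, 0.0636 for KMT2C, 0.0642 for CHD1, 0.0828 for EED and 0.107 for HDAC2 by edgeR. The median of the 45 peaks was then −0.00, while that of all peaks shifted from 0.01 to 0.15, and the start peak of the demethylase KDM4A was called higher (log2 change 0.30 ± 0.09, adjusted p = 0.0226, against 0.16 ± 0.09 and 0.313 with scaling by all peaks). The members' start peaks took 0.484 ± 0.0152% of promoter-class counts in SAS siITGA7 and 0.495 ± 0.00797% in SAS siControl libraries (SD, n = 4 each). Without siITGA7 replicate 4, 3 start peaks were called, of which KMT2C was 1 (adjusted p = 0.00202) while CHD1 had 0.0912, EED 0.0539, HDAC2 0.156 and SMARCA2 0.131.

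No gene was called at its start in both lines. SETD5, lower in Cal33, had 210.0, 197, 197 and 218 CPM in SAS siITGA7 libraries, against 222, 251, 243 and 237 CPM in SAS siControl libraries. All siITGA7 values were below all siControl values there too, but the log2 change of −0.21 ± 0.08 did not pass (adjusted p = 0.123 by edgeR). CHD1, SMARCA2, KMT2C and EED had log2 changes of −0.08 ± 0.12, −0.07 ± 0.13, −0.12 ± 0.14 and −0.03 ± 0.12 in Cal33, none called. In a fit of all 16 libraries a difference of the effect between the lines passed at 0 of the 46 start peaks by edgeR, against 1.02% of 12460 peaks at RefSeq starts, and at 0 by DESeq2. At an unadjusted p under 0.05 there were 11, of which 8 had a positive difference, Cal33 effect minus SAS effect. Over all peaks at RefSeq starts the median difference was 0.13, with 35.5% below 0. Of all 16598 tested promoter-class peaks, 2619 had an unadjusted p under 0.05. The difference, Cal33 minus SAS, was 0.56 ± 0.19 for EED (adjusted p = 0.148), 0.54 ± 0.20 for SMARCA2 (0.171) and −0.62 ± 0.25 for CHD8 (0.238), by edgeR.

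Among the 135 peaks assigned by the nearest annotated start, 59 passed the filter on low counts in Cal33, and 2 rose while 4 fell with siITGA7. The 6 calls made 10.2% of those tested, against a background of 9.19% of all 75230 tested peaks, 4.52% higher and 4.67% lower. At an unadjusted p under 0.05, 5 were higher and 11 lower, and DESeq2 called 0 higher and 3 lower. Of all 75230 tested peaks, 18610 had an unadjusted p under 0.05, and DESeq2 called 1830 higher and 2692 lower. The siITGA7 and siControl groups did not overlap at 14.6% of all tested peaks. With scaling by promoter-class peaks alone 3 member peaks were higher and 2 lower, and 4 of the 6 calls remained. Of 25 tested promoter-class peaks 1 rose and 1 fell, with a median log2 change of −0.11 against −0.12 for all promoter-class peaks, of which 11.7% were called. Of 34 tested other peaks 1 rose and 3 fell, with a median of −0.09 against 0.03 for all such peaks, of which 8.59% were called.

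**Figure D2:**
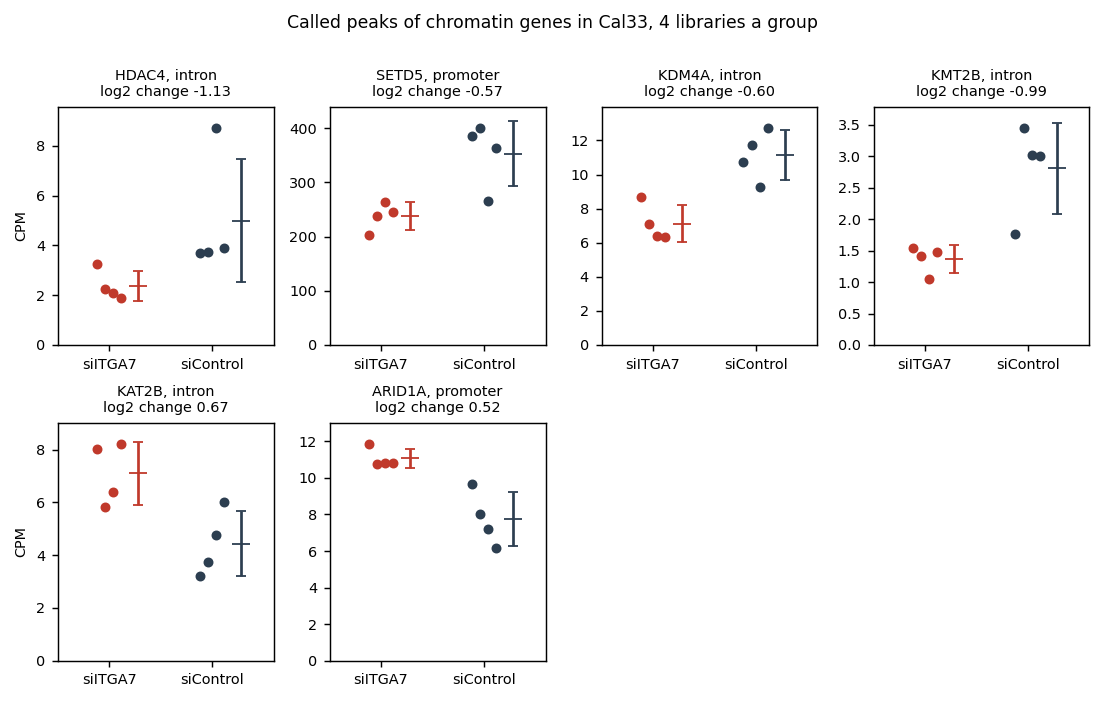
Accessibility in CPM of the 6 nearest-start peaks called in Cal33 with siITGA7, as points for each of 4 libraries a group, siITGA7 left of siControl, with bars for the mean and 1 SD. In the HDAC4 panel 1 siControl library, replicate 3, stands at 8.70 CPM, while the other 3 lie between 3.70 and 3.88 CPM.

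The SETD5 promoter described above was 1 of the 4 peaks that fell. Among the others, a peak in the intron 7 of KDM4A, a demethylase of histone H3, at chr1:43666263-43667217, had 8.68, 7.11, 6.39 and 6.31 CPM in siITGA7 libraries and 10.8, 11.8, 9.28 and 12.7 CPM in siControl libraries. The groups were apart, and the log2 change was −0.60 ± 0.15 (adjusted p = 0.0119 by edgeR). The KDM4A call was lost in 4 of 18 alternatives. A peak in intron 21 of 31 of KMT2B, chr19:35731326-35731795, fell by 0.99 ± 0.28 on the log2 scale (adjusted p = 0.0235 by edgeR). Its values were low, with 1.54, 1.42, 1.05 and 1.47 CPM in siITGA7 libraries and 1.77, 3.44, 3.02 and 3.00 CPM in siControl libraries. These values rest on 10 to 26 counts per library, with the groups apart. The KMT2B call was lost in 5 of 15 alternatives. The lowest fold was that of a peak in intron 7 of 26 of HDAC4, a class IIa deacetylase, at chr2:239150467-239151388. It had 3.24, 2.25, 2.10 and 1.89 CPM in siITGA7 libraries and 3.70, 3.73, 8.70 and 3.88 CPM in siControl libraries, a log2 change of −1.13 ± 0.26 (adjusted p = 0.00542 by edgeR). The siControl mean rests on replicate 3, and without it the log2 change was −0.63 with an adjusted p of 0.0981.

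The 2 peaks that rose lay at ARID1A and KAT2B. ARID1A, the DNA-binding subunit of the BAF form of SWI/SNF, had a promoter-class peak at chr1:26771331-26772974, inside the gene and far from its RefSeq start, with 11.8, 10.8, 10.8 and 10.8 CPM in siITGA7 libraries and 9.64, 8.03, 7.19 and 6.18 CPM in siControl libraries. The groups were apart and the log2 change was 0.52 ± 0.15 (adjusted p = 0.0245 by edgeR), while the ARID1A peak at the RefSeq start had 0.05 ± 0.12. The call of the internal ARID1A peak was lost in 6 of 18 alternatives. A peak in intron 1 of KAT2B, a histone acetyltransferase, at chr3:20062513-20063007, had 8.02, 5.81, 6.39 and 8.20 CPM in siITGA7 libraries and 3.21, 3.73, 4.76 and 6.00 CPM in siControl libraries. These groups overlapped, with a log2 change of 0.67 ± 0.19 (adjusted p = 0.0245 by edgeR). The KAT2B call was lost in 7 of 18 alternatives. For the Polycomb genes the smallest p belonged to a peak assigned to EZH2 but lying in an intron of another gene, chr7:148772500-148773042, with a log2 change of −0.22 ± 0.18 (adjusted p = 0.485 by edgeR).

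In SAS, 43 of the 135 peaks were tested, and 5 rose while 3 fell, which is 18.6% against a background of 7.03% of 43600 tested peaks, 4.04% higher and 2.99% lower. At an unadjusted p under 0.05, 9 were higher and 6 lower, and DESeq2 called 4 higher and 1 lower. Of all 43600 tested peaks, 8962 had an unadjusted p under 0.05, and DESeq2 called 774 higher and 262 lower. The siITGA7 and siControl groups did not overlap at 11.6% of all tested peaks. With scaling by promoter-class peaks alone 7 member peaks were higher and 0 lower, and the 5 higher calls remained. Of 24 promoter-class peaks 3 rose and 3 fell, with a median log2 change of −0.10 against −0.14 for all promoter-class peaks, of which 8.70% were called. Of 19 other peaks 2 rose and none fell, with a median of 0.25 against 0.07 for all such peaks, of which 6.38% were called. The 3 that fell were the CHD1, EED and HDAC2 promoters above. The 5 that rose lay away from the RefSeq start of their gene, at SETD5, CHD4, KAT2A, ARID1A and SETDB1.

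**Figure D3:**
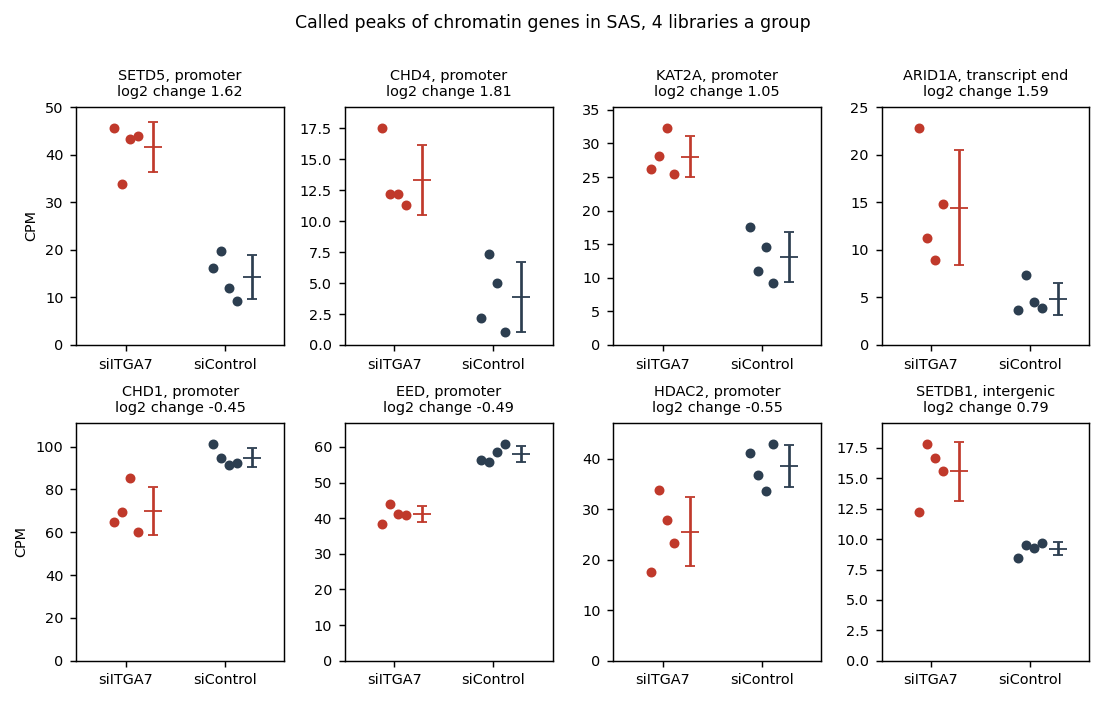
Accessibility in CPM of the 8 nearest-start peaks called in SAS with siITGA7, as points for each of 4 libraries a group, siITGA7 left of siControl, with bars for the mean and 1 SD. The 4 siITGA7 libraries of the SETD5 peak sit between 33.7 and 45.5 CPM, above all siControl libraries, which lie between 9.29 and 19.8 CPM.

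SETD5 had the smallest p of all member peaks, at a promoter-class peak 36007 bp downstream of the annotated start, chr3:9433378-9434429. It had 45.5, 33.7, 43.3 and 43.9 CPM in SAS siITGA7 libraries and 16.1, 19.8, 11.9 and 9.29 CPM in SAS siControl libraries. The groups did not overlap, the log2 change was 1.62 ± 0.18 (adjusted p = 1.28e-12 by edgeR), and the call held in all 15 alternatives. In Cal33 this peak was nearly closed, with 2 to 9 counts per library, and was not tested. Within 1 gene, SAS siITGA7 libraries thus had a higher internal peak beside a start peak with a log2 change of −0.21 ± 0.08.

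KAT2A, the acetyltransferase of the SAGA and ATAC complexes, had a promoter-class peak at chr17:42116821-42118364 with 26.2, 28.1, 32.2 and 25.5 CPM in SAS siITGA7 libraries and 17.6, 11.0, 14.5 and 9.29 CPM in SAS siControl libraries. The groups were apart and the log2 change was 1.05 ± 0.20 (adjusted p = 6.76e-05 by edgeR). In Cal33 the same peak averaged 1.97 ± 0.385 CPM in siITGA7 and 2.35 ± 1.05 CPM in siControl libraries (SD, n = 4 each), with a log2 change of −0.32 ± 0.29 (adjusted p = 0.526 by edgeR). CHD4, the NuRD remodeller, had 17.5, 12.2, 12.2 and 11.3 CPM in SAS siITGA7 libraries and 2.199, 7.34, 5.02 and 1.07 CPM in SAS siControl libraries at a promoter-class peak, chr12:6583085-6583449. The groups were apart, the log2 change was 1.81 ± 0.34 (adjusted p = 6.48e-05 by edgeR), and the values rest on 3 to 19 counts per library.

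A peak at the transcript end of ARID1A, chr1:26780786-26781566, had 22.7, 11.2, 8.89 and 14.9 CPM in SAS siITGA7 libraries and 3.66, 7.34, 4.49 and 3.93 CPM in SAS siControl libraries. The groups were apart, and the log2 change was 1.59 ± 0.31 (adjusted p = 0.0001 by edgeR). An intergenic peak 3771 bp upstream of the annotated start of SETDB1, a methyltransferase that silences repeats, had 12.2, 17.8, 16.7 and 15.6 CPM in SAS siITGA7 libraries and 8.43, 9.55, 9.25 and 9.65 CPM in SAS siControl libraries, at chr1:150922397-150922851. These groups were also apart. The log2 change was 0.79 ± 0.24 (adjusted p = 0.0271 by edgeR), and with the replicate number as a block it was 0.75 (0.0536). The SETDB1 call was lost in 8 of 14 alternatives, DESeq2 among them. In Cal33 the SETDB1 peak had a log2 change of 0.48 ± 0.17 (adjusted p = 0.0704 by edgeR). The CHD4 and ARID1A peaks passed the filter on low counts through the siITGA7 libraries, the group in which they were higher. Their values are therefore given as a description. The SETD5, CHD4, KAT2A and ARID1A calls held in every alternative that tested them, namely 14 or 15 each. For CHD4 and ARID1A this is no separate support, since not every alternative tested them. Of the demethylases and of DNA methylation and CTCF no peak was called by edgeR in SAS, the smallest p being those of the KDM4A intron (0.35 ± 0.20, adjusted p = 0.327) and of the CTCF promoter (−0.17 ± 0.11, 0.373).

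**Figure D4:**
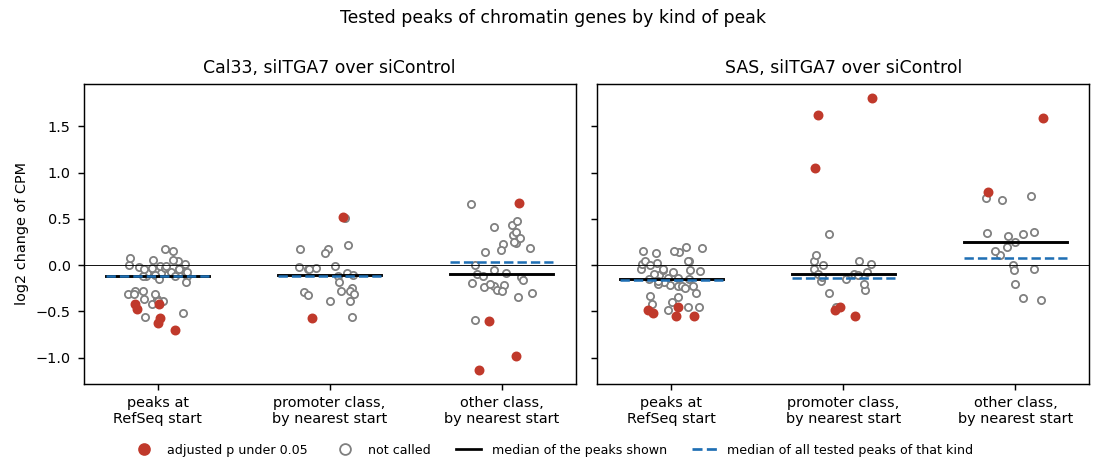
Log2 change in accessibility, siITGA7 over siControl, of the members' tested peaks at the RefSeq start and, by nearest start, of the promoter class and of other classes, in Cal33 (left panel) and SAS (right panel), with filled points for an adjusted p under 0.05, solid lines for the median of the peaks shown and dashed lines for the median of all tested peaks of that kind. In SAS the members' other peaks have a median of 0.25 and their promoter-class peaks one of −0.10, while in Cal33 these are −0.09 and −0.11.

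In the fit of all 16 libraries, edgeR called the effect of siITGA7 different between the lines at 1 of 85 tested member peaks. The background was 0.761% of 94918 peaks. DESeq2 called 2 member peaks, and over all peaks 242 higher and 236 lower. The peak called by edgeR was the internal SETD5 peak, with a difference, Cal33 minus SAS, of −2.26 ± 0.54 (adjusted p = 0.0178 by edgeR). With 2 to 9 counts per Cal33 library it passed the filter on low counts through SAS, and the Cal33 side of the difference rests on those few counts, so the value is given as a description. Without Cal33 siControl replicate 3 it was −2.06 with an adjusted p of 0.0763, and with libraries thinned to the smallest total the adjusted p was 0.403. The next were the internal KAT2A peak (−1.28 ± 0.35, adjusted p = 0.0518) and the KDM4A intron (−0.86 ± 0.26, 0.0918), neither of them called by edgeR. The exon 11 peak of NSD2 at chr4:1939845-1940910 had −0.90 ± 0.28 (adjusted p = 0.100 by edgeR), with log2 changes of −0.30 ± 0.13 in Cal33 and 0.70 ± 0.25 in SAS.

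The lines themselves differed at far more of these peaks than the siRNA groups did. In siControl libraries, Cal33 over SAS, 34 of 46 start peaks differed, 30 higher and 4 lower in Cal33, against a background of 78.4% of 11985 peaks at RefSeq starts, 58.3% higher and 20.1% lower. DESeq2 called 28 higher and 3 lower, and over all 15034 promoter-class peaks 7578 higher and 3642 lower. The median log2 difference of the 46 peaks was 0.66, against 0.54 for all peaks at RefSeq starts and −0.08 for all peaks. This split depended on the scaling. With scaling by promoter-class peaks it was 21 higher and 13 lower with a median of 0.17, 25 of the 34 calls kept, and SMARCD1, ARID1A, KMT2D and HDAC2 changed sign without a call. Scaling by total counts also gave 21 higher and 13 lower, with 25 calls kept and CHD8 as a further gene whose sign turned. The median of all peaks moved to −0.54 under the promoter scaling and to −0.58 under total counts.

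**Figure D5:**
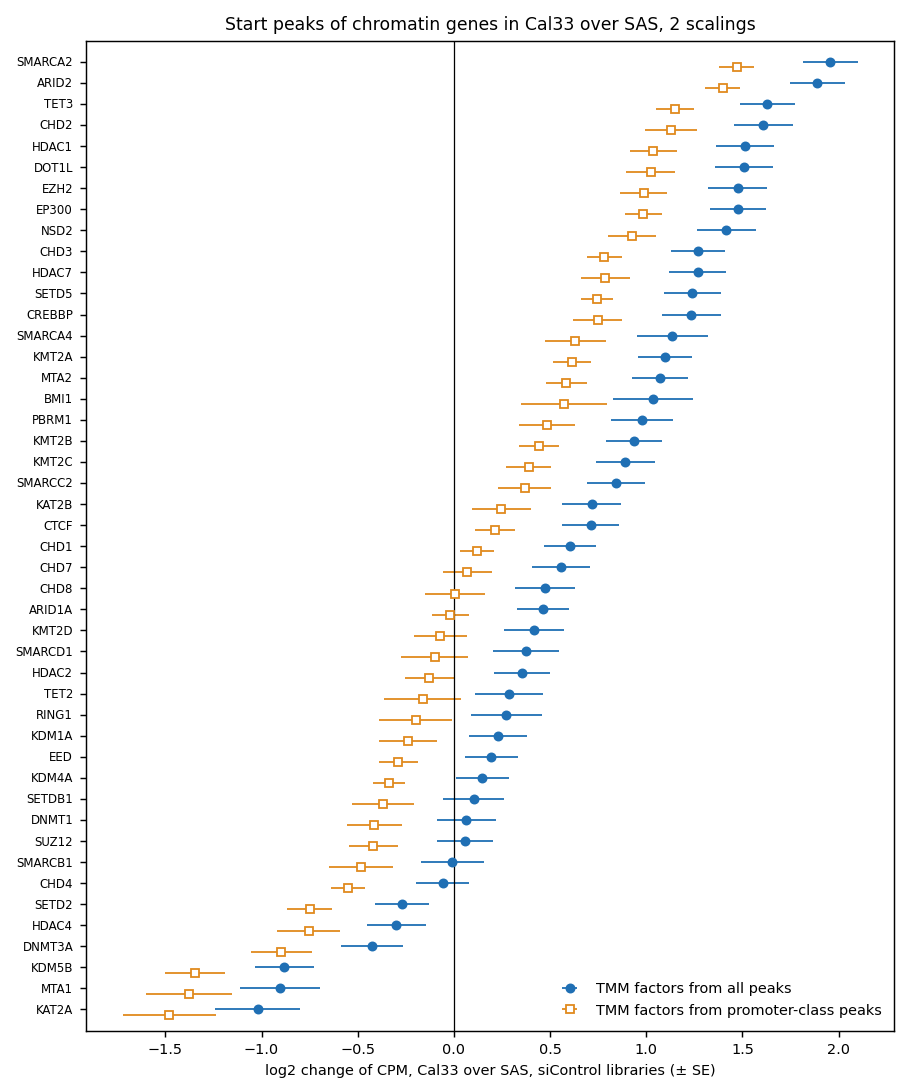
Log2 difference in accessibility of the 46 start peaks in siControl libraries, Cal33 over SAS, with bars of 1 standard error (4 against 4 libraries), for scaling by all peaks (filled circles) and by promoter-class peaks (open squares). Every gene lies lower under the promoter scaling, and the median is 0.17 there against 0.66, so that genes near the middle, such as ARID1A and HDAC2, lie on either side of 0.

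With scaling by all peaks SMARCA2 differed most. Per kilobase of peak its start had 54.1 ± 5.08 CPM in Cal33 siControl and 13.8 ± 1.39 CPM in SAS siControl libraries (SD, n = 4 each), a log2 difference of 1.96 ± 0.14 (adjusted p = 3.26e-19 by edgeR) that was 1.47 under the promoter scaling, where KAT2A differed by −1.48. ARID2, a subunit of the PBAF form of SWI/SNF, had 55.2 CPM per kilobase in Cal33 and 14.8 in SAS, a log2 difference of 1.89 ± 0.15. TET3, which oxidises methylated cytosine, had 93.8 and 30.5 CPM per kilobase in Cal33 and SAS, a log2 difference of 1.63 ± 0.14. The remodeller CHD2 followed with 70.5 in Cal33 and 22.6 in SAS (1.61 ± 0.15), and HDAC1 with 36.7 in Cal33 and 13.04 in SAS (1.51 ± 0.15). All 5 were called higher in Cal33.

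The 4 start peaks lower in Cal33 with scaling by all peaks were KAT2A, the NuRD subunit MTA1, KDM5B and the de novo methyltransferase DNMT3A. KAT2A had 5.35 CPM per kilobase in Cal33 and 10.7 in SAS at chr17:42120715-42121751, a log2 difference of −1.02 ± 0.22 (adjusted p = 3.15e-05 by edgeR). MTA1 had 3.27 in Cal33 and 5.97 in SAS (−0.91 ± 0.21, adjusted p = 9.08e-05 by edgeR), and KDM5B had 7.38 in Cal33 and 13.3 in SAS (−0.88 ± 0.16, 8.64e-07). DNMT3A, with 9.04 in Cal33 and 11.6 in SAS, differed least (−0.43 ± 0.16, adjusted p = 0.0143 by edgeR). Under the promoter scaling, KAT2A, MTA1, KDM5B and DNMT3A had log2 differences of −1.48, −1.38, −1.35 and −0.90, and 13 start peaks were lower. SETD5 was the most accessible start in both lines, with 207 ± 34.6 CPM per kilobase in Cal33 and 87.8 ± 4.76 in SAS siControl libraries (SD, n = 4 each) and a log2 difference of 1.24 ± 0.15. CHD4, SUZ12, DNMT1 and SMARCB1 had log2 differences of −0.06, 0.06, 0.06 and −0.01, not called by edgeR. Under the promoter scaling all 4 were called lower in Cal33, at −0.55, −0.42, −0.41 and −0.48.

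By nearest start, 48 of 63 tested peaks differed between the lines, 23 higher and 25 lower in Cal33, against 78.6% of 73404 tested peaks. Of 25 promoter-class peaks 10 were higher and 7 lower, against 79.0% of all such peaks in either direction, and of 38 other peaks 13 were higher and 18 lower, against 78.5%. Under the promoter scaling the split was 13 higher and 32 lower, with 38 calls kept and the signs of SMARCD1 and HDAC2 turned. Among each gene's strongest promoter-class peak, an internal MTA1 peak at chr14:105448317-105449051 differed most, with 2.28 CPM per kilobase in Cal33 and 11.6 in SAS siControl libraries (−2.42 ± 0.28). The internal ARID1A peak that rose in Cal33 with siITGA7 had 5.58 CPM per kilobase in Cal33 and 22.1 in SAS siControl libraries (−1.97 ± 0.16), and the internal KAT2A peak 1.80 in Cal33 and 6.30 in SAS (−1.77 ± 0.26). HDAC7, another class IIa deacetylase, went the other way, with 20.0 in Cal33 and 8.19 in SAS (1.27 ± 0.15). The lowest of these promoter-class peaks were an internal DNMT3A peak at chr2:25250398-25250667 in Cal33, with 0 counts in all 4 siControl libraries against 2 to 14 counts in SAS, and in SAS an internal CREBBP peak at chr16:3770698-3772587 with 0.955 CPM per kilobase.

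Among 122 other chromatin genes listed beside the members, 119 matched, and 113 had a peak at the RefSeq start. In Cal33 0 of these 113 rose and 17 fell by edgeR, with a median log2 change of −0.18. At an unadjusted p under 0.05 there were 34, against 4317 of all 14599 promoter-class peaks. The share called was 15.0%, against the background of 11.8% at RefSeq starts. In SAS 1 of 109 rose and 12 fell, with a median of −0.18, which is 11.9% called against a background of 8.70%. The peaks with the smallest p in Cal33 included a promoter-class peak assigned to BAP1, a deubiquitinase that opposes Polycomb, with 29.0 ± 2.44 CPM in siITGA7 and 44.8 ± 4.00 CPM in siControl libraries (SD, n = 4 each; log2 change −0.62 ± 0.11, adjusted p = 0.000803 by edgeR). Promoter-class peaks assigned to SMARCD2, a SWI/SNF subunit, and to RUVBL2, an INO80 ATPase, also fell, by 0.77 ± 0.15 and 0.61 ± 0.13. An intron peak assigned to the NuRD subunit GATAD2A rose, by 0.86 ± 0.20 on the log2 scale. In all 4 of these peaks, which were picked by smallest p, the groups were apart, as at 14.6% of all tested peaks in Cal33. They were assigned by nearest annotated start and need not be the genes' own promoters. The RUVBL2 peak covered the RefSeq start of its gene. The BAP1 peak lay inside the gene away from both ends, and the SMARCD2 peak lay outside its gene.

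In SAS the 5 smallest p belonged to peaks assigned to ACTL6A, SMC1A, KDM7A, CHD9 and KDM4B. The peak assigned to ACTL6A, an actin-related SWI/SNF subunit, was classed as intron in the annotation but covered the gene's annotated start. It had 71.7 CPM in siITGA7 and 100.2 CPM in siControl libraries (log2 change −0.47 ± 0.11, adjusted p = 0.00211 by edgeR). Promoter-class peaks assigned to the cohesin gene SMC1A and the demethylase KDM7A and an intron peak assigned to CHD9 fell by 0.50 ± 0.12, 0.86 ± 0.22 and 0.44 ± 0.12. The KDM7A peak lay 29345 bp from the annotated start, outside the gene. An exon peak assigned to the demethylase KDM4B rose, with 55.7 CPM in siITGA7 and 39.5 CPM in siControl libraries (0.52 ± 0.14, adjusted p = 0.00808 by edgeR). By nearest start, 8 of 210 tested peaks of these other genes rose and 10 fell in Cal33, which is 8.57% called against a background of 9.19%. In SAS 5 of 145 rose and 10 fell, which is 10.3% against 7.03%. Between the lines in siControl, 76 of their 113 start peaks were higher and 14 lower in Cal33, which is 79.6% called against a background of 78.4%.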

How the data were processed

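ATAC-seq was measured in 16 libraries, 4 replicates in each of 4 groups. For 164980 peaks common to both lines the authors deposited unnormalized counts, 1 for each library, and these were tested. The deposited normalized signal, which in the values is the count over a constant of the library, entered no test. Per the submitters' processing notes, bcl2fastq 2.20.0 was used and the build was hg38 or GRCh38. The aligner, peak caller, duplicate removal and any read shift for the transposase were not given in the sources used here. Single counts need not be independent molecules. Per the labels, reads were 100 bp in pairs, fragments measured 205 to 230 bp, and 3 Cal33 libraries had 2 sequencing runs while all others had 1. The growth and treatment texts of the labels speak of RNA work, so their details are not certain for these cultures.

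The annotation holds 45291 Ensembl identifiers with no symbol. They were matched to RefSeq genes of GRCh38.p14 by position, asking that the start inferred from the distances lie within 20000 bp of the gene's span and that 0.7 of an identifier's peaks inside genes lie in the matched gene. Coordinates are those of the files, counted from 1. Each line was fitted apart with edgeR 4.0.16 in R 4.3.3 (quasi-likelihood F-test, robust, TMM factors, default filter on low counts, Benjamini-Hochberg adjustment over all tested peaks, threshold 0.05). The line difference in effect used the interaction in a fit of all 16 libraries, and the lines were compared over the 8 siControl libraries. CPM uses TMM-scaled totals, and log2 CPM in the search for outlying libraries a prior count of 2. The fits were tested on simulated data. Alternatives were other scalings, DESeq2 1.42.0, filters, thinning to the smallest library, sequencing runs, a replicate block and leaving out each library. The labels give replicate numbers as a batch tag that the groups share, so numbers pair the libraries by the labels, but deviations of same-numbered libraries correlated at only −0.13 to 0.02.

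The members, the gene lists and the peaks at RefSeq starts were chosen with earlier results of these data known. Named peaks are the called ones, the smallest p per role, the 5 smallest interaction p, the 5 largest differences between lines, the highest and lowest levels, and 5 other chromatin genes per line, of which 1 is not reported here. Sequences are RefSeq promoter windows of at most 6 genes by smallest p.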

Additional observations from a re-analysis of the deposited data

Results flagged for a closer look

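In 9 of 112 groups of 4 libraries, 1 library stood farther from the other 3, relative to the range of its group in log2 CPM, than the 95% critical value of Dixon's test allows, and chance gives such a gap in about 1 in 20 groups. The groups share the same 16 libraries, and the flagged peaks had been named by call or by largest difference between the lines. They are thus not independent draws, and the 1 in 20 is only a guide. In Cal33 siControl libraries the high library at the HDAC4 intron peak had a ratio of 0.914, and the low library at the TET3 start one of 0.838. In Cal33 siITGA7 libraries the ratio was 0.957 for the high library at the internal ARID1A peak, 0.935 for the low library at the KMT2B intron peak and 0.870 for the low library at the SMARCA4 start. In SAS siITGA7 libraries it was 0.848 for the low library at the TET3 start. In SAS siControl libraries it was 0.833 for the high library at the HDAC7 promoter and 0.830 for the low libraries at both the EZH2 and the KMT2C start. The effect of siITGA7 at the internal SETD5 peak, which was open in SAS and had only 2 to 9 counts per library in Cal33, differed between the lines by −2.26 on the log2 scale (Cal33 minus SAS).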

How the results depend on the processing

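Of the 33 calls at member peaks named by the rule above, 15 held in every alternative that tested them and 0 turned sign. Calls at other peaks are not among the 33. Some of these did turn sign with the scaling, such as the SMARCD1 and HDAC2 start peaks between the lines. Among the siITGA7 calls of the 33, only the CHD8 start in Cal33 and the SETD5, CHD4, KAT2A and ARID1A peaks that rose in SAS held. The CHD4 and ARID1A peaks had passed the filter on low counts through the siITGA7 group, where they were higher. The other calls that held were differences between the lines. In Cal33 the 6 called peaks by nearest start were 3 with DESeq2, 3 after thinning and 4 to 11 without 1 library each. The 11 came without siControl replicate 3. The 6 at RefSeq starts were 1 in the libraries with 1 run, 5 with the number of runs as a covariate and 1 to 18 without 1 library each. In SAS the 8 by nearest start were 5 with DESeq2, 14 with no filter, 3 with a mean of at least 50 counts, 3 after thinning and 5 to 10 without 1 library each. The 5 at RefSeq starts were 1 with promoter scaling, 1 with DESeq2, 13 with no filter, 2 after thinning and 3 to 7 without 1 library each, the lowest of both without siITGA7 replicate 4. The 1 interaction call was 2 with RLE factors, 2 with DESeq2, 2 with a mean of at least 50 counts, 0 after thinning and 1 to 2 without 1 library each, and the 0 interaction calls at RefSeq starts were 1 with a mean of at least 50 counts and 0 without any 1 library. Between the lines, the 48 by nearest start were 98 with no filter, 19 with a mean of at least 50 counts, 20 after thinning and 48 to 59 without 1 library each, and the 34 at RefSeq starts 33 to 37. Filters and thinning change how many peaks are tested, and the cause of the other differences was not tested. With the replicate block the calls were 6 and 5 in Cal33, 7 and 5 in SAS, 1 and 0 for the interaction and 49 between the lines by nearest start, and the block changed no call of a named peak other than EZH2 and SETDB1. The low depth of SAS siITGA7 libraries limits what could be tested there.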
